A study of Zea mays with 6 samples.

Results

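The maize (Zea mays) genes gst6 (GRMZM2G129357), gst30 (GRMZM2G044383) and dhar3 (GRMZM2G035502) encode 2 glutathione transferases and a dehydroascorbate reductase. These 3 genes, of 39448 in the deposited tables, were picked by identifier because their transcripts were already known to differ between wild-type (WT) and floury3 (fl3) endosperm. Their difference between genotypes is therefore described here with no test. RNA was sequenced from endosperm, the storage tissue of the kernel, harvested 10 days after pollination from field-grown plants, with 3 WT and 3 fl3 libraries that the design text calls independent biological replicates. The fl3 mutant has soft, opaque kernels, and the labels name its genotype only as fl3, without allele, zygosity or inbred background. Levels are in FPKM (mapped fragments scaled by gene length and library total), a scale per length on which genes can be compared with each other.

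Glutathione is a small thiol that cells use both as a reductant and as a tag. Glutathione transferases attach it to reactive or foreign molecules, herbicides among them, and some plant members of the family act as carriers of pigments and other compounds. Dehydroascorbate reductase, a relative of these enzymes, spends glutathione to turn oxidised ascorbate back into ascorbate. Ascorbate peroxidase in turn uses ascorbate to remove hydrogen peroxide, and glutathione reductase restores the glutathione. In seeds this cycle is known as part of the control of oxidants during development and drying.

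FPKM sums of the 6 libraries lay between 465741 and 480602, and 23808 to 24755 genes per library were above 0. The floury3 gene (GRMZM2G006585) had transcript levels of 2260.2 ± 164 FPKM in WT and of 3158 ± 67.3 FPKM in fl3 (SD, n = 3). Over the 17272 genes averaging 1 FPKM or more, 67.3% passed the test between genotypes (limma on log2(FPKM + 1), Benjamini-Hochberg adjusted p under 0.05), 43.5% rising and 23.8% falling in fl3. Of those calls 64.7% were upward, or 50.4% after median-of-ratios scaling and 48.7% after quantile normalization. The median difference over tested genes was 0.14 on the log2(FPKM + 1) scale, fl3 minus WT, and 0.00 after median-of-ratios scaling. Endosperm markers (12 genes) summed to 25529.9 to 30457 FPKM in WT and 12297 to 16635 FPKM in fl3. That sum was led by gz27, bz15 and gz16, with WT means of 14122, 6771 and 3714 FPKM. All 12 were tested, and 11 fell and 1 rose. The 1 that rose, GRMZM2G146267, went from a mean of 12.6 FPKM in WT to 15.0 FPKM in fl3. It shares the symbol pbf1 with GRMZM2G146283, which fell from 79.5 to 35.0 FPKM. Markers of the embryo-surrounding region (6 genes) summed to 142 to 179 FPKM in WT and 472 to 612 FPKM in fl3. Aleurone markers (11 genes, with the pigment regulator c1 at 0 in every library) summed to 232 to 248 FPKM in WT and 308 to 323 FPKM in fl3, a sum led by Nkd1 (GRMZM2G129261) with means of 113 and 175 FPKM. Of the 8 aleurone genes tested, 3 rose, 1 fell and the others did not pass. The 1 that fell, GRMZM6G474234, shares the symbol a2 with GRMZM2G345717, which was under the filter. Sums overlapped between genotypes for embryo markers (16 genes; 438 to 456 FPKM in WT, 437 to 535 FPKM in fl3) and for basal transfer layer markers (14 genes; 4062 to 5554 and 4032 to 7349 FPKM). Single basal transfer layer genes did differ, and of the 13 tested 3 rose, 1 fell and 9 did not pass. Within the embryo list, glb3 (GRMZM2G410134) went from 233 to 169 FPKM and ole1 (GRMZM2G337229) from 139.8 to 219 FPKM; 3 of its 7 tested genes rose and 1 fell, and lec1 (GRMZM2G011789), under the filter, had means of 0.0140 and 1.25 FPKM. Green tissue markers (14 genes, with PSBQ at 0 in every library) summed to at most 1.44 FPKM. In whole endosperm, more cells of a type and more RNA per cell cannot be told apart, and the part of these shifts in the results below was not tested.

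The dehydroascorbate reductase gene dhar3 had the highest level of the 3 genes. It was at 32.3, 30.3 and 28.9 FPKM in WT replicates 1 to 3 and at 172, 161 and 186 FPKM in the fl3 replicates. The groups were far apart, since the lowest fl3 library was 5.01 times the highest WT library. Means were 30.5 ± 1.67 FPKM in WT and 173 ± 12.5 FPKM in fl3 (SD, n = 3), a 5.68-fold difference. On the log2(FPKM + 1) scale the difference was 2.47, and 0.735% of tested genes had a higher one. The WT level already exceeded that of 83.5% of tested genes, and the fl3 level exceeded that of 97.7%.

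The glutathione transferase gene gst6 was at 7.68, 8.58 and 7.42 FPKM in the WT replicates and at 27.9, 25.8 and 29.0 FPKM in the fl3 replicates. Every fl3 library was at least 3.01 times every WT library. The means of 7.89 ± 0.609 and 27.6 ± 1.63 FPKM (SD, n = 3) gave a 3.50-fold difference, or 1.69 on the log2(FPKM + 1) scale. Among tested genes it stood near the middle in WT, above 51.2% of them, and above 80.6% of them in fl3.

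The other glutathione transferase gene, gst30, lay on the opposite side. It was at 7.41, 8.44 and 9.78 FPKM in the WT replicates and at 0.621, 0.677 and 0.348 FPKM in the fl3 replicates. The lowest WT library was 10.9 times the highest fl3 library, and no fl3 library reached 1 FPKM. The means of 8.54 ± 1.19 and 0.549 ± 0.176 FPKM (SD, n = 3) gave a 15.6-fold lower level in fl3. The log2(FPKM + 1) difference of -2.62 understates that fold, because the fl3 level is below the pseudocount of 1 FPKM. The gene entered the tested set through its WT level. Only 0.486% of tested genes had a lower difference.

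**Figure D1:**
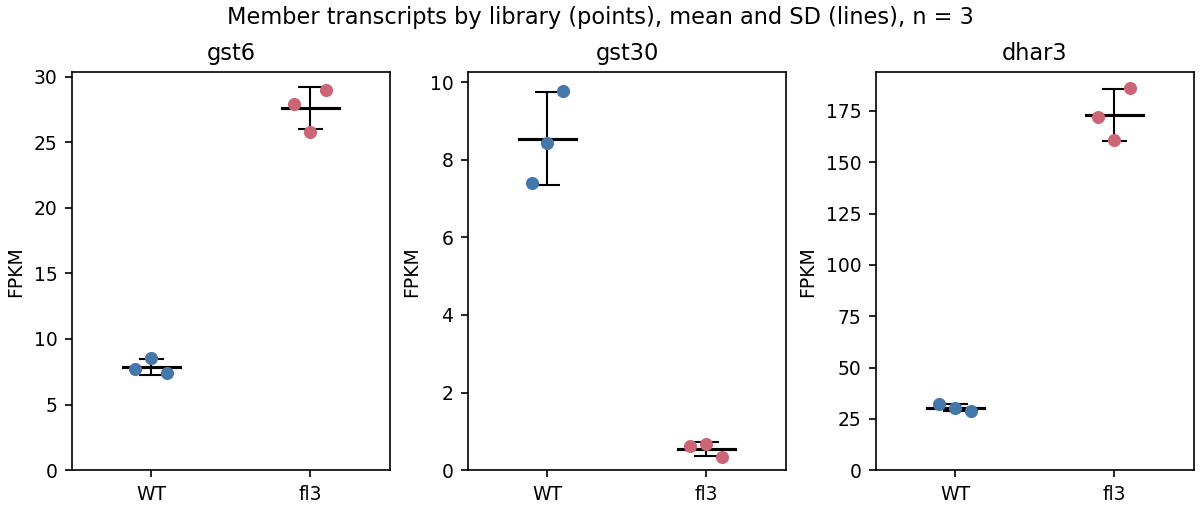
FPKM of gst6, gst30 and dhar3 (vertical axes, each from 0) in the 3 WT and 3 fl3 libraries; points are libraries, long lines the mean and short caps the SD. For gst6 and dhar3 every fl3 library lies above every WT library, and for gst30 every fl3 library lies below, under 1 FPKM.

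The genotypes did not overlap for any of the 3 genes, which the way they were picked already fixes; of all tested genes 71.7% did not overlap, 45.8% with fl3 higher and 25.9% with fl3 lower. A fold of mean FPKM of at least 3 upward was found for 7.04% of tested genes and downward for 3.02%. In WT the order of levels was dhar3 first, with gst30 and gst6 behind it and overlapping, gst30 at 7.41 to 9.78 FPKM and gst6 at 7.42 to 8.58 FPKM. In fl3 the order was dhar3, gst6 and gst30, with no overlap between neighbours. The ratio of gst6 to gst30 transcripts was 1.04, 1.02 and 0.758 in the WT replicates and 44.9, 38.1 and 83.5 in the fl3 replicates. The ratio of dhar3 to gst6, genes that were both higher in fl3, was 4.20, 3.53 and 3.90 in WT and 6.16, 6.26 and 6.42 in fl3. Within a genotype the coefficient of variation of dhar3 and gst6 was between 5.46% and 7.72%. That of gst30 was 14.0% in WT and 32.1% in fl3, where its level was low.

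Within its family, gst6 moved from the fourth to the third place and gst30 from the third to rank 16 among 34 glutathione transferase genes with a name. The highest, gst1 (GRMZM2G116273), the gene of an abundant maize isoform known for conjugating herbicides, was at 229, 242 and 209.8 FPKM in WT and at 392, 380.0 and 454 FPKM in fl3. It rose 1.80-fold (log2 difference 0.85, SE 0.09, adjusted p = 4.04e-05 by limma), with no overlap between genotypes. The 3 highest genes of each genotype held 85.5% of the family's FPKM sum in WT and 87.6% in fl3. As a share of that sum, gst6 was 2.67% ± 0.0827 in WT and 5.11% ± 0.155 in fl3, and gst30 was 2.90% ± 0.513 and 0.104% ± 0.0396 (SD, n = 3).

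The 32 other glutathione transferase genes together went from 279 ± 15.1 FPKM in WT to 513 ± 42.5 FPKM in fl3 (SD, n = 3), a 1.84-fold difference. Most of that sum was gst1, with means of 227 FPKM in WT and 409 FPKM in fl3, so it mainly follows that gene. The lowest fl3 sum, 475 FPKM, was above the highest WT sum, 294 FPKM, with an exact two-sided permutation p of 0.1, the lowest value open to 3 libraries against 3. Of these 32 genes 11 passed the filter on low values, and limma called 7 of these higher and 2 lower in fl3, so 81.8% were called beside 67.3% of all tested genes. Their median difference was 0.85 beside 0.14 over all tested genes. Among the 11, gst37 and bz2 entered only through the group where they are high, so their calls carry no weight in this comparison. The share and the median were not computed without them. Without the filter 29 of them entered the fit, and 10 rose and 2 fell. That is 41.4% called, below the 50.8% of all genes so tested. By direction, 34.5% rose beside 33.0% of all genes, and 6.90% fell beside 17.8%. The total called was thus above the background with the filter and below it without, where the risen share was close to the background. After median-of-ratios scaling, 6 of the 11 rose and 2 fell, 54.5% and 18.2% beside 33.8% and 33.3% of all tested genes.

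Behind gst1, gst5 (GRMZM2G308687) rose from 17.3 ± 0.877 to 37.1 ± 5.87 FPKM, GST3 (GRMZM2G146246) from 5.53 ± 1.24 to 18.4 ± 2.60 FPKM and gst41 (GRMZM2G097989) from 3.12 ± 0.479 to 8.03 ± 0.938 FPKM (SD, n = 3; limma adjusted p = 3.49e-05, 2.51e-05 and 3.65e-05). The 3.33-fold difference of GST3 was close in size to the 3.50-fold difference of gst6; whether the 2 differ was not tested. The gene gst31 (GRMZM2G475059) rose by 0.52 on the log2 scale with overlapping libraries (limma adjusted p = 0.0211). It did not pass without WT replicate 2 (adjusted p = 0.0673 by limma), WT replicate 3 (0.0553), fl3 replicate 2 (0.0610) or fl3 replicate 3 (0.0673), nor under the other scalings. The gene gst42 (GRMZM2G025190), at 7.08 ± 1.72 FPKM in WT and 10.2 ± 3.76 FPKM in fl3, did not pass (limma adjusted p = 0.161), but did without fl3 replicate 1, where its log2 difference went from 0.44 to 0.74 (limma adjusted p = 0.00779).

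The genes called lower in the rest of the family, named after their values were seen, were gst10 (GRMZM2G096153) and bz2 (GRMZM2G016241). Bronze2, bz2, is the glutathione transferase needed to place anthocyanin pigment in the vacuole. It was at 2.39, 2.27 and 1.95 FPKM in WT and at 0.541, 0.435 and 0.884 FPKM in fl3, a 3.55-fold lower mean with no overlap. It passed the filter through its WT level alone, so its call adds nothing to these values. The gene gst10 fell 1.53-fold from 2.08 ± 0.266 FPKM (SD, n = 3; limma adjusted p = 0.00914). Both were low in every library, and the corresponding fold of gst30 was 15.6.

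**Figure D2:**
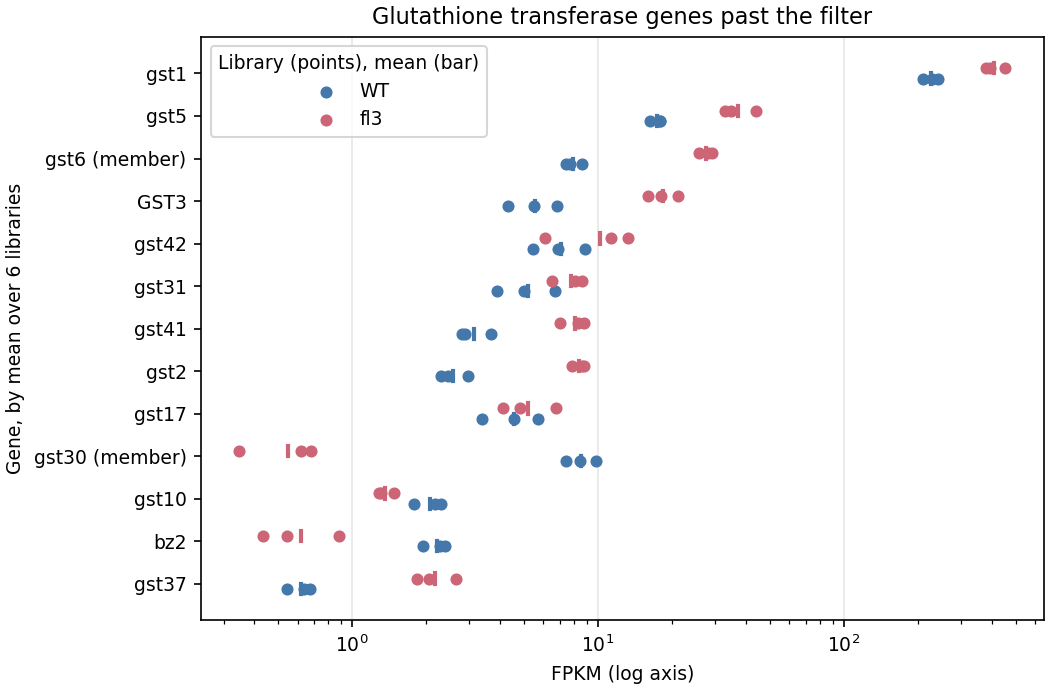
FPKM (horizontal, log axis) of the 13 glutathione transferase genes past the filter, ordered by mean over the 6 libraries; points are single WT or fl3 libraries and upright bars the group means. gst30, gst10 and bz2 lie lower in fl3, and gst1 is the highest gene in both genotypes.

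In the gene order of the reference assembly, gst30 stands at one end of a run of 4 named glutathione transferase genes on chromosome 1, next to GST38 (GRMZM2G066369) and GST39 (GRMZM2G028821), with gst37 (GRMZM2G178079) at the other end. At most 1 other gene lies between consecutive members of the run. These neighbours were named after their values were seen. GST38 was at 0.243, 0 and 0.242 FPKM in WT and listed at 0 in the 3 fl3 libraries. GST39 was above 0 only in WT replicate 3, at 0.0493 FPKM. The gene gst37 was higher in fl3, going from 0.543, 0.639 and 0.676 FPKM in WT to 2.65, 1.83 and 2.05 FPKM in fl3, a 3.51-fold higher mean. It passed the filter through its fl3 level alone. Neighbouring copies can share reads, and their assignment is not described in the labels. The genes gst6, on chromosome 7, and dhar3, on chromosome 6, had no named family gene as a near neighbour. Of the 10 tested genes flanking each of the 3 members, 5 to a side among identifiers with a place in the reference, 3 rose and 7 did not pass around gst6. Around gst30, 2 rose, 1 fell and 7 did not pass, and around dhar3, 4 rose, 3 fell and 3 did not pass. Of all tested identifiers with a place in the reference 68.4% were called by limma.

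Among the 4 dehydroascorbate reductase genes with a name, dhar3 made up 31.1% ± 0.553 of their summed FPKM in WT and 61.1% ± 2.24 in fl3 (SD, n = 3). It passed dhar1 as the highest of the 4. The gene dhar1 (GRMZM5G855672) was at 51.1, 48.9 and 48.6 FPKM in WT and at 87.2, 85.7 and 91.0 FPKM in fl3. It rose 1.78-fold with no overlap (log2 difference 0.82, SE 0.05, limma adjusted p = 3.27e-06). Its neighbour on chromosome 8, dhar2 (GRMZM2G005710), was at 18.6, 18.7 and 12.5 FPKM in WT and at 20.0, 27.6 and 17.6 FPKM in fl3, overlapped between genotypes and did not pass (limma adjusted p = 0.110). The gene dhar4 (GRMZM5G826194), named after its values were seen, was under the filter, at 1.45, 1.37 and 1.49 FPKM in WT and at 0.0609, 0.137 and 0.0840 FPKM in fl3. The summed level of the 4 named genes went from 98.1 ± 6.03 to 283 ± 10.6 FPKM, and without dhar3 from 67.6 ± 4.45 to 109.8 ± 3.22 FPKM (exact two-sided permutation p = 0.1, n = 3, the smallest possible).

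**Figure D3:**
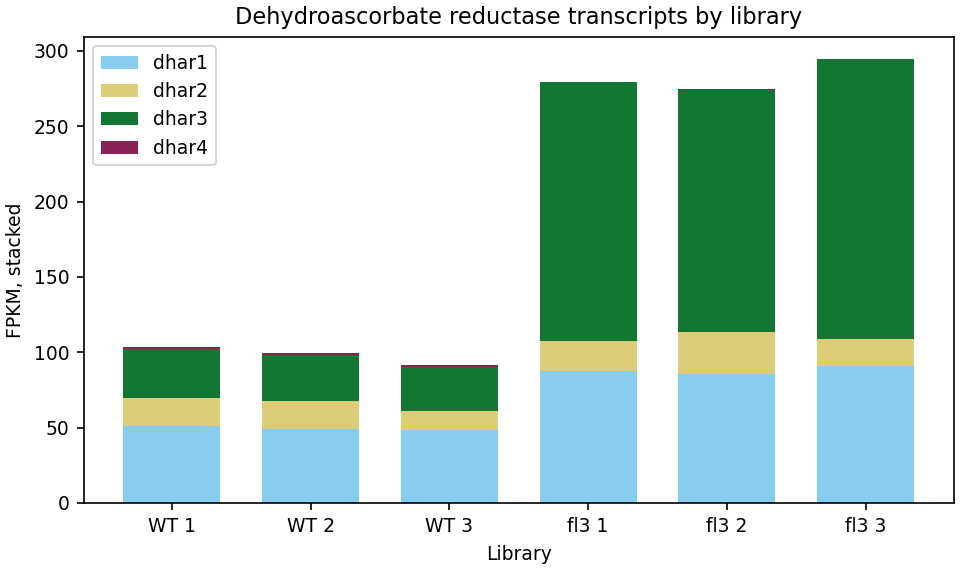
Stacked FPKM of dhar1, dhar2, dhar3 and dhar4 in each of the 6 libraries, one bar per library. The dhar3 segment grows from 28.9 to 32.3 FPKM in WT to 161 to 186 FPKM in fl3, and dhar4 is barely visible.

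The next genes act around dhar3 in the ascorbate cycle or in making ascorbate. They were matched by symbol, and 2577 of the 39448 identifiers had an informative name. Ascorbate peroxidase was represented by apx (GRMZM2G140667) alone, so any other gene for this step was not examined. The level of apx was 62.9 ± 6.99 FPKM in WT and 66.6 ± 1.56 FPKM in fl3 (SD, n = 3). It did not pass (limma adjusted p = 0.354), though it did at a log2 difference of 0.17 without WT replicate 1 (limma adjusted p = 0.0217). VTC2 (GRMZM2G359397), for a committed step of ascorbate synthesis, rose 1.49-fold from 47.1 ± 1.71 FPKM in WT to 70.2 ± 4.29 FPKM in fl3 with no overlap (limma adjusted p = 6.44e-05). The later enzyme GalDH (GRMZM2G126002) did not pass, at 19.2 ± 0.610 and 18.8 ± 0.530 FPKM (limma adjusted p = 0.675); after median-of-ratios scaling it fell by 0.18 on the log2 scale.

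Glutathione reductase, gor1 (GRMZM2G172322), rose 1.32-fold, from 15.9, 17.9 and 17.0 FPKM in WT to 22.0, 22.4 and 22.5 FPKM in fl3 (limma adjusted p = 5.99e-04). The enzymes of glutathione synthesis parted. The first, gsh1 (GRMZM2G111579), rose from 58.3 ± 1.25 to 66.6 ± 2.22 FPKM (limma adjusted p = 0.0106), but passed neither after median-of-ratios scaling, where its log2 difference was 0.03, nor after upper-quartile or quantile scaling. The second, gsh2 (GRMZM2G155974), fell from 3.37 ± 0.247 to 1.87 ± 0.310 FPKM (SD, n = 3; limma adjusted p = 9.09e-04).

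Of the 10 genes that passed the filter on the list drawn up for superoxide and peroxide removal, limma called 8 higher and 1 lower, or 90.0% beside 67.3% of all tested genes, of which 43.5% rose and 23.8% fell. The list was matched by symbol, and the reference table gives no product for 3 of the 10, GP and a pair of genes named PER1. Of the other 7, all superoxide dismutases or catalases by symbol, 6 rose, or 5 after median-of-ratios scaling. Among the 6 of highest level, the superoxide dismutase Sod4A (GRMZM2G058522) rose 1.95-fold, starting at 27.2 ± 2.37 FPKM, and sodC (GRMZM2G106928) 1.33-fold, starting at 70.6 ± 5.61 FPKM (SD, n = 3; limma adjusted p = 8.69e-06 and 0.00251). The dismutase sod2 (GRMZM2G025992) and PER1 (GRMZM2G129761) rose 1.45-fold and 1.53-fold (limma adjusted p = 5.08e-04 and 5.52e-04). The manganese superoxide dismutase sod3 (GRMZM2G059991) was at 110.1 ± 3.27 and 117 ± 6.26 FPKM and did not pass (limma adjusted p = 0.211). The catalase cat1 (GRMZM2G088212) rose 1.17-fold (limma adjusted p = 0.00591), a call that was lost after median-of-ratios and upper-quartile scaling. A gene with the symbol GP (GRMZM2G135893), named after its values were seen, was at 1.40, 1.41 and 1.33 FPKM in WT and 15.9, 13.2 and 14.4 FPKM in fl3, a 10.5-fold rise (limma adjusted p = 1.06e-07). The one called lower was the second PER1 gene (GRMZM2G104394), at 3.20 ± 0.531 FPKM in WT and 0.576 ± 0.315 FPKM in fl3 (SD, n = 3). It passed the filter through its WT level alone. The catalase cat2 (GRMZM2G090568), named after its values were seen, was under the filter. Its levels were 0.691, 0.835 and 0.693 FPKM in WT and 0.0432, 0.0420 and 0.0788 FPKM in fl3. Without the filter, 8 of 11 genes of this list were called higher and 2 lower, 72.7% and 18.2% beside 33.0% and 17.8% of all genes.

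Thioredoxins and glutaredoxins reduce disulfides of other proteins, glutaredoxins with glutathione as the donor. The glutaredoxin grx1 (GRMZM2G150295) rose 2.22-fold, from 47.0, 47.0 and 46.4 FPKM in WT to 102, 97.4 and 113 FPKM in fl3 (limma adjusted p = 1.75e-06). The thioredoxin trxh2 (GRMZM2G144653) went up 1.74-fold from 109 ± 12.4 FPKM, while trxh1 (GRMZM2G424053) fell from 37.5 ± 1.59 to 26.5 ± 2.60 FPKM (SD, n = 3; limma adjusted p = 6.92e-05 and 5.23e-04).

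Over all these lists without the 3 members, 32 of 55 genes passed the filter, and limma called 21 higher and 5 lower in fl3, leaving 6. That is 81.2% called, 65.6% upward and 15.6% downward, beside 67.3%, 43.5% and 23.8% of all tested genes, and a median log2 difference of 0.50 beside 0.14. Median-of-ratios scaling gave 18 higher and 6 lower, 56.2% and 18.8% beside 33.8% and 33.3% of all genes. The fit without the filter gave 24 higher and 7 lower of 52, 46.2% and 13.5% beside 33.0% and 17.8% of all genes. For 3 of the 32, bz2, gst37 and the second PER1 gene, 1 of the group means was under 1 FPKM, so these entered through the group where they are high. Without GP and PER1, left out after the data were seen, 19 of 29 genes were called higher and 4 lower.

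**Figure D4:**
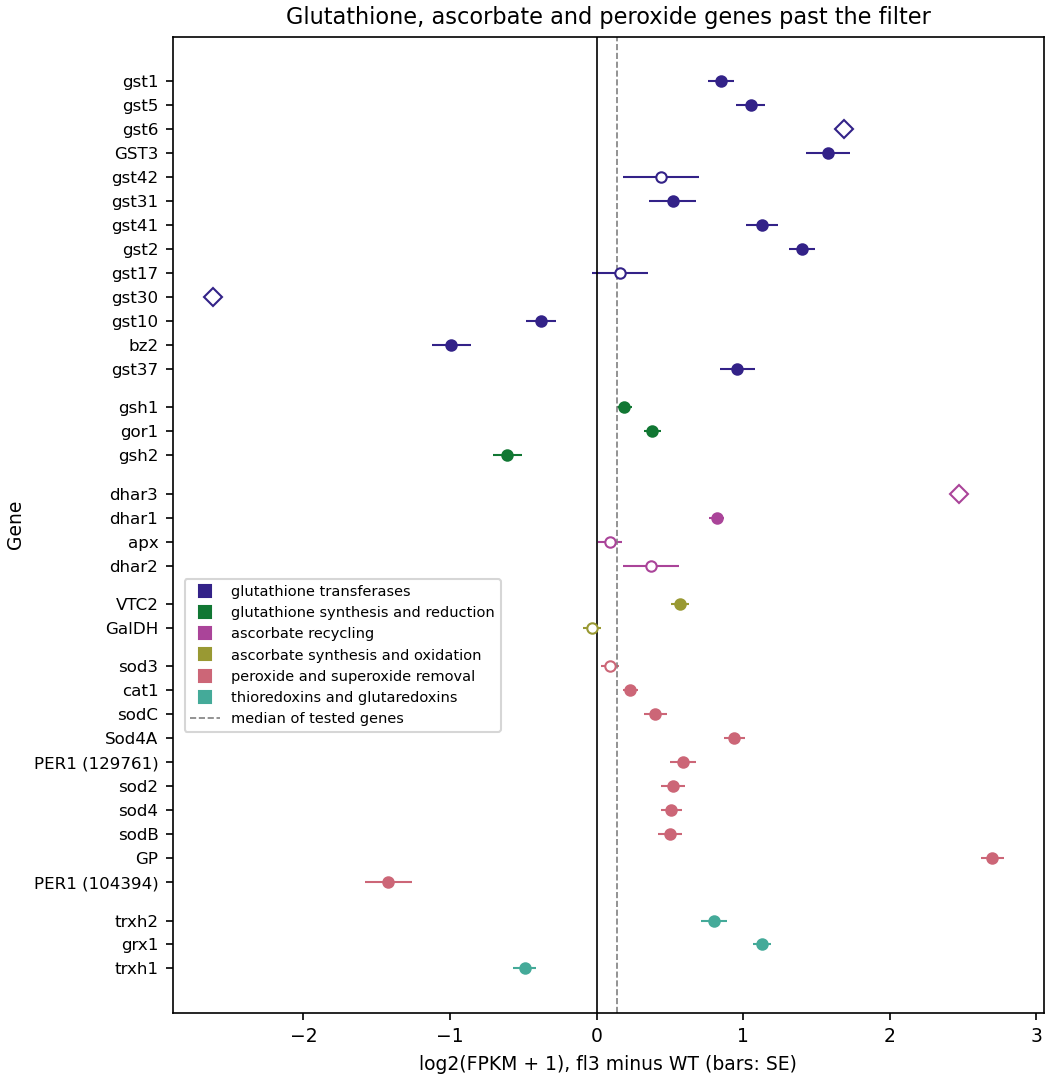
Difference of log2(FPKM + 1), fl3 minus WT (horizontal axis; bars are the SE from limma), for the genes of each list past the filter; filled circles passed at an adjusted p under 0.05, open circles did not, and open diamonds are gst6, gst30 and dhar3, shown with no test. The 21 genes that rose lie right of the dashed median of 0.14 over all tested genes, and gst30, bz2, PER1 (GRMZM2G104394), gsh2, trxh1 and gst10 lie left of 0, as does GalDH, at -0.03, without passing.

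The named genes most like each member were found by the root mean square difference of log2(FPKM + 1), each taken relative to its WT mean, over the 6 libraries. This measure follows the genotype difference, so it repeats what picked the members. For dhar3 they were yuc (GRMZM2G091819), a flavin monooxygenase gene of the auxin pathway, at 0.10, CBL5 (GRMZM2G041729), of the family of calcineurin B-like calcium sensors, at 0.14, and RNRS2 (GRMZM2G155546), a ribonucleotide reductase small subunit, at 0.15. CBL5 was at 0.0341, 0 and 0.0349 FPKM in WT and at 4.66, 5.45 and 5.76 FPKM in fl3, so its ratio of means was far above that of dhar3, and its closeness holds only on the scale with a pseudocount of 1 FPKM. The yuc level was 102, 99.9 and 98.3 FPKM in WT and 642, 543 and 578 FPKM in fl3. For gst6 they were CA5P16 (GRMZM2G078691) at 0.05, atp1 (GRMZM2G101020) at 0.10 and the glutamine synthetase gene gln1 (GRMZM2G098290) at 0.12. CA5P16 was at 14.6, 15.6 and 13.5 FPKM in WT and at 46.4, 43.7 and 51.8 FPKM in fl3.

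No named gene came as close to gst30. The nearest were PPCK3 (GRMZM2G096753), a kinase of phosphoenolpyruvate carboxylase, at 0.30, and GLK5 (GRMZM2G016370) and TAR3 (GRMZM2G141810), of the tryptophan aminotransferase-related family, at 0.31 each. PPCK3 was at 9.33, 10.7 and 8.07 FPKM in WT and at 1.17, 0.989 and 1.03 FPKM in fl3. Its range overlaps that of gst30 in WT and lies above it in fl3. Mean levels in WT and fl3 were 9.97 and 0.344 FPKM for GLK5, and 167 and 31.6 FPKM for TAR3. Their ratios of means thus differed from that of gst30. Here too the closeness holds on the scale with a pseudocount of 1 FPKM, which understates the fold of gst30.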

How the data were processed

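Endosperm RNA of 3 WT and 3 fl3 libraries was analysed from the FPKM values per gene that the authors deposited, 1 table per library. The submitters' processing notes name FastQC, TopHat, Bowtie2 and the build B73 RefGen_v3; neither the FPKM tool nor the annotation or strand setting is named there. Whether FPKM lie in steps of whole reads was not settled. At most 6.69% of genes under 0.3 FPKM shared a 2% bin of the ratio between libraries. Ratios of small read numbers spread over many bins, so this check cannot exclude steps. Some low genes sat near a repeated value, such as gst24 (GRMZM2G032856) at 0.0446, 0.0426 and 0.0438 FPKM in WT. Depth was not derived from such values, and no counting interval is given. Names, chromosomes and gene order came from an NCBI table of Zm-B73-REFERENCE-NAM-5.0, which matched 18906 identifiers; its coordinates were not used.

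Genes averaging 1 FPKM or more were fitted as log2(FPKM + 1) with limma 3.58.1 in R 4.3.3 (genotype as the only term, mean-variance trend, two-sided, Benjamini-Hochberg over 17272 genes). The fit was tested on simulated data. Sums were compared with exact permutation tests in SciPy 1.17.1; plots used matplotlib 3.10.9. The members and lists were chosen with earlier results of these data known. Lists were symbol patterns, and 2 marker matches of another kind of gene were left out by name. Named are the members, up to 6 genes of highest mean per redox list, the 3 named genes most like each member, and others marked as named with their values known. Protein relatives, planned, were not analysed here. Alternatives covered the pseudocount, filter, scaling, variance trend, replicate block and each library left out.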

Additional observations from a re-analysis of the deposited data

How the results depend on the processing

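The direction of gst6, gst30 and dhar3, for which they were picked, was the same in every alternative fit that held them. With a mean of 4.55 FPKM over the 6 libraries, gst30 was not in the fit with a filter of 5 FPKM. On the log2 scale gst6, at 1.69, was 1.79 and 1.81 with pseudocounts of 0.1 and 0.01, and 1.53, 1.59 and 1.55 under median-of-ratios, upper-quartile and quantile scaling. For gst30, at -2.62, the smaller pseudocounts gave -3.77 and -3.98. For dhar3, at 2.47, median-of-ratios and upper-quartile scaling gave 2.30 and 2.36. Leaving out 1 library at a time gave 1.65 to 1.74 for gst6, -2.71 to -2.53 for gst30 and 2.41 to 2.52 for dhar3. With that filter 7675 genes were called and 4771 rose, as fewer genes were tested, and of the listed redox genes 1 fell. The count of other glutathione transferases called lower was 0, since gst10 and bz2 both average below 5 FPKM. Leaving out a library gave 10706 to 11176 calls among the 17272 tested genes, with 6920 to 7254 genes risen. Beside that, 20 to 22 of the 32 tested redox genes and 6 to 8 of the 11 tested other glutathione transferases rose. Same-numbered libraries did not deviate together over all genes (correlations of -0.153, 0.0716 and -0.0227, beside -0.139 to 0.135 for unlike numbers). This cannot exclude a shared origin that acts on some genes. With the replicate block 11137 of the 17272 genes were called, 7240 upward and 3897 downward, and of the 32 redox genes 23 rose and 5 fell. There gst42 and dhar2 passed in addition (limma adjusted p = 0.0340 and 0.0159). The permutation p for the other glutathione transferases' sum was 0.25, the smallest that 3 pairs allow. For the 23 single redox genes examined, 327 repeats kept the call, 12 lost it and 5 gained it. With FPKM alone, depth is unknown, and values under 1 FPKM, such as those of gst30 in fl3, are the least certain.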
